A study of Glycine max with 4 samples.

Results

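The regions described here are places in the middle of soybean chromosomes, chromosome 13 left out, where an antibody against the GLYMA.06G314400 protein enriched DNA. They come from ChIP-seq, in which an antibody pulls down the DNA fragments that a protein holds and these are sequenced. Embryos of Glycine max (cultivar Williams 82) were dissected from seeds of 6 to 7 mm, in the early maturation stage. The samples were 2 ChIP libraries, made with an antibody against a peptide of the protein, and 2 Input libraries of chromatin that was not precipitated, and both groups came from embryos of the same cultivar and stage with no treatment named. No control antibody library was used here, so signal of the antibody at other proteins cannot be told apart from binding of this one. The sources used here do not say how many embryos went into a replicate. Regions were joined from peaks of the ChIP replicate 1 list and the ChIP replicate 2 list that overlapped by at least 1 bp, and a region with a peak of each list is called shared. A member is a shared region whose summit, taken from its replicate 2 peak, lay from 40 up to 60% of the chromosome's span, measured from 0 to the end of the last peak. There were 1562 members on 19 chromosomes, of 36103 shared regions on all 20 chromosomes and 33504 on the 19. They were set against the 23871 shared regions in the outer zones of the same chromosomes, 20% of the span at each end. Gene names, motifs and sequences of the sites were not analysed here, since no genome on the build of the peak lists was used. Positions below are those of the lists, counted from 1. The sources used here do not give the build.

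Peak names in both lists carry AREB3, a name used for basic leucine zipper (bZIP) factors that bind ABA-responsive elements. Factors of this family bind short elements in regulatory DNA of genes that respond to the hormone abscisic acid, and in maturing seeds they are known for acting with other seed regulators on storage and desiccation genes. Soybean chromosomes carry most of their genes toward the ends, while their central stretches around the centromere are rich in repeats and poor in genes. The middle zone here is defined by distance alone, and centromere positions were not used.

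The lists held 36770 peaks of replicate 1 and 44066 peaks of replicate 2 on these 19 chromosomes. Each peak carries the authors' fold enrichment at its summit, which divides the ChIP pileup plus 1 fragment by the local background plus 1, and the −log10 p and q of the summit. The pileup and the background were recovered from the fold and the p. The lowest background, which stands for the mean depth, was 3.00 fragments in replicate 1 and 6.36 in replicate 2, so replicate 2 was the deeper library.

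Shared regions were sparse in the middle of every one of the 19 chromosomes. Mappability of the zones was not analysed here, so these are densities of called regions and not of binding itself. The middle zones held 8.81 ± 3.50 shared regions per Mb, against 66.7 ± 8.43 per Mb in the outer zones (mean ± SD over 19 chromosomes). The highest middle density, 17.8 per Mb on chromosome 8, stayed below the lowest outer density, 50.9 per Mb on chromosome 20. The middle density ran from 3.34 to 17.8 per Mb between chromosomes, and the outer density from 50.9 to 82.6 per Mb. Chromosome 8 had 170 members and chromosome 1 had 133. Chromosome 11 had 105 members in a zone of 6.92 Mb, which made its middle the second densest at 15.2 per Mb. At the other end, chromosome 4 had 35 members (3.34 per Mb), chromosome 5 had 47 (5.57 per Mb) and chromosome 18 had 49 (4.22 per Mb). The ratio of middle to outer density was 0.0480 on chromosome 4 and 0.256 on chromosome 8, with a median of 0.138. Across the 19 chromosomes the middle density had a Spearman correlation of 0.205 with the outer density, a description of points that share their libraries.

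**Figure D1:**
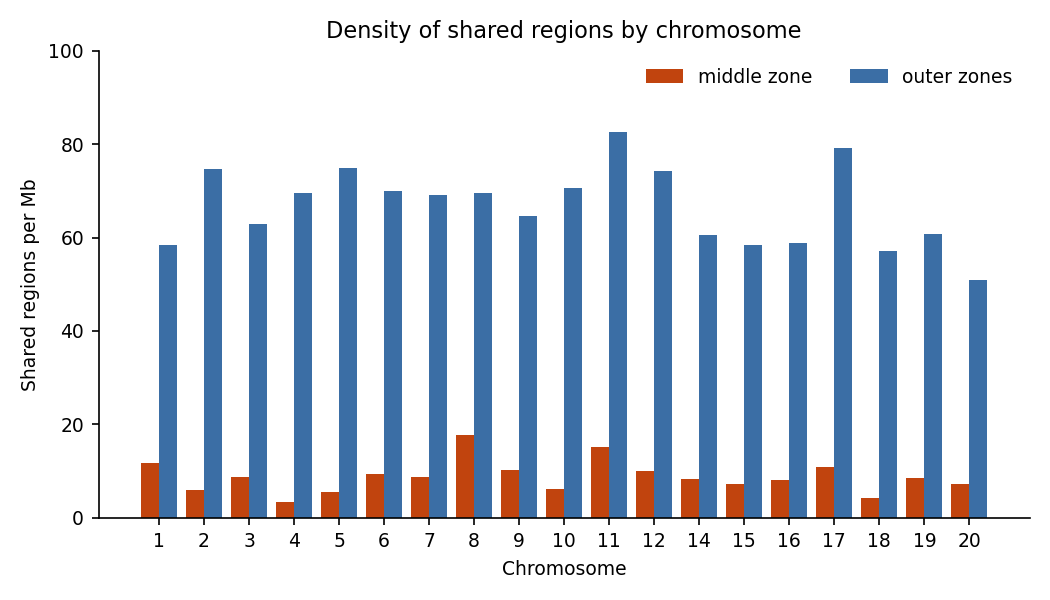
Shared regions per Mb in the middle zone (left bar) and in the outer zones (right bar) of each of 19 chromosomes. Middle densities run from 3.34 per Mb on chromosome 4 to 17.8 per Mb on chromosome 8, and all lie below the outer densities.

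Members were few, but their fold enrichment was not detectably different from that of sites near the chromosome ends. In replicate 1 the median fold enrichment was 7.30 among members (interquartile range 5.17 to 11.2) and 7.11 in the outer zones (5.11 to 11.1). In replicate 2 it was 6.50 among members (4.60 to 9.67) and 6.31 in the outer zones (4.52 to 9.59). The distributions overlapped over nearly their whole length. Medians were compared chromosome by chromosome with a two-sided exact sign test, and p-values were adjusted by the Benjamini-Hochberg method over 15 comparisons. The chromosome median of fold was higher in the middle zone on 11 of 19 chromosomes in replicate 1, with a median difference of 0.0799 (exact interval -0.0906 to 0.711, coverage 98.1%, adjusted p = 0.883). In replicate 2 it was higher on 12 of 19 chromosomes, with a median difference of 0.0800 (-0.289 to 0.584, adjusted exact p = 0.674). Neither difference passed the threshold of 0.05, and differences of any size inside these intervals remain possible. Chromosomes share both libraries and are not biological replicates, so these tests speak of the spread between chromosomes.

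**Figure D2:**
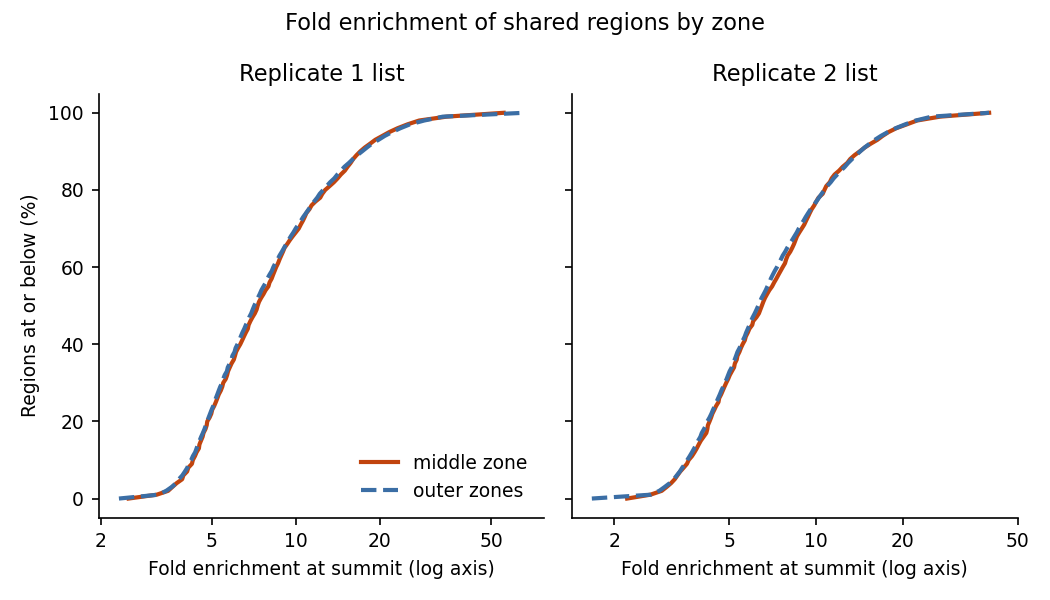
Share of shared regions (%) at or below each fold enrichment (log axis) in the replicate 1 list (left panel) and the replicate 2 list (right panel), for the middle zone (solid) and the outer zones (dashed). The curves nearly coincide, with medians of 7.30 and 7.11 in replicate 1 and of 6.50 and 6.31 in replicate 2.

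Sites with a high fold in both lists made up a share of members close to that of all shared regions. A fold of at least 10 in both lists was reached by 320 of 1562 members, or 20.5% (exact 95% interval 18.5 to 22.6), and by 20.7% of regions in the outer zones (20.2 to 21.2). Over all 33504 shared regions it was 20.8%, so the members' share is near the background. Ranked by the worse of their places in the 2 lists by peak p, 376 members (24.1%, 21.97 to 26.3) and 24.9% of outer regions (24.4 to 25.5) were in the best 25%, which holds 25% of shared regions by definition. The share was higher in the middle zone on 6 of 19 chromosomes and lower on 13 (adjusted exact sign test p = 0.501, median difference -1.21 percentage points, interval -4.19 to 1.94). In the best 1% by rank stood 13 members, or 0.832% of them (0.444 to 1.42), and 1.00% of outer regions (0.879 to 1.14). In the best 10% stood 139 members (8.90%, 7.53 to 10.4) and 10.0% of outer regions (9.66 to 10.4). The worst 25% held 408 members (26.1%, 23.96 to 28.4) and 24.9% of outer regions (24.3 to 25.4). These shares by rank leaned to weaker members, and only the best 25% was tested over chromosomes. Peak width passed no test between zones either. Median width was 352 bp in the middle zone and 358 bp in the outer zones in replicate 1, and 370 and 376 bp in replicate 2, with adjusted exact p of 0.883 and 1.

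The local input background was lower at members, past the threshold with the main settings only in replicate 1. There the median background at the summit was 3.58 fragments among members and 3.82 in the outer zones. It was lower in the middle zone on 17 of 19 chromosomes, higher on 1 and equal on 1 (adjusted exact sign test p = 0.00109, median difference -0.139 fragments, interval -0.242 to -0.114). Chromosome 2 was the one where it was higher, at 3.82 fragments in the middle and 3.72 in the outer zones. In replicate 2 the median was 7.98 fragments among members and 8.74 in the outer zones, lower in the middle zone on 14 of 19 chromosomes (adjusted exact p = 0.318, median difference -0.570, interval -0.799 to 0.029). Under the 8 alternatives this p ran from 5.34e-05 to 0.318. It passed the threshold with summits within 100 bp and with q of 1e-10 or less, each lower on 17 of 19 chromosomes. The zone from 45 to 55% also passed (lower on 16 of 19). So did all 2072 middle peaks of the replicate 2 list without replicate 1 (lower on 18 of 19 chromosomes, median difference -0.566). The other alternatives did not pass.

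Some regions had the lowest background of their list, the level MACS2 uses where the local input is not above the genome mean. That held for 200 members (12.8%, exact 95% interval 11.2 to 14.6) and 3.54% of outer regions (3.31 to 3.78) in replicate 1. In replicate 2 it held for 146 members (9.35%, 7.95 to 10.9) and 1.61% of outer regions (1.45 to 1.78). Shared regions lying between the middle and outer zones had intermediate shares, 6.99% in replicate 1 and 3.95% in replicate 2. The share thus rose from the ends to the middle and was not confined to the middle zones. These shares were chosen after their values were seen and were not tested over chromosomes.

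The ChIP signal itself did not pass a test between zones. The median summit pileup in replicate 1 was 34 fragments among members and 34 in the outer zones. In replicate 2 it was 60 fragments among members and 61 in the outer zones. Middle pileups were lower on 11 of 19 chromosomes in replicate 1 and on 13 in replicate 2 (adjusted exact p of 0.801 and 0.361). The part of background in the fold values was not tested.

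**Figure D3:**
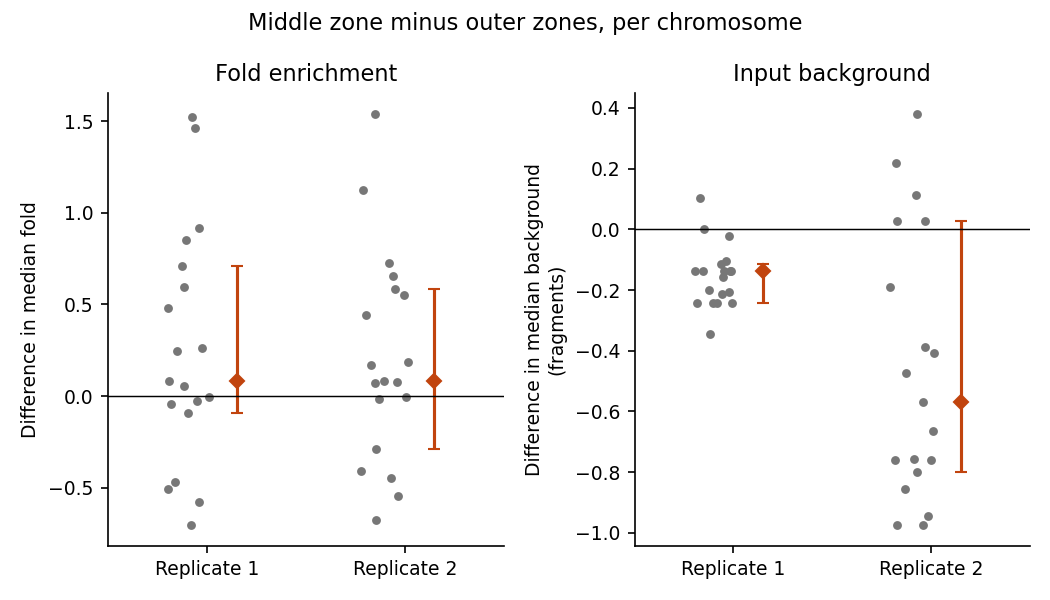
Difference between the median of the middle zone and that of the outer zones on each of 19 chromosomes (grey points) for fold enrichment (left panel) and for the summit background in fragments (right panel), in each replicate. Diamonds mark the median difference and bars its exact interval of 98.1% coverage, which lies below 0 only for the background of replicate 1.

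Members, kept only where peaks of both lists overlapped, had close summits and correlated folds in the 2 replicates, as did regions near the ends. That filter favours close summits and leaves out peaks found in a single list. The values below therefore do not measure replicate agreement over all peaks. Of the 1562 members, 1554 (99.5%, exact 95% interval 98.99 to 99.8) had 1 peak in each list, against 98.4% of outer regions (98.3 to 98.6). The summits of both replicates lay a median of 21.5 bp apart among members (interquartile range 10 to 41.75) and 22 bp apart in the outer zones, and summits lay within 100 bp in 95.5% of members and 95.07% of outer regions. Across members the Spearman correlation between replicates was 0.833 for fold, 0.914 for pileup and 0.788 for width, as a description over regions of the same 2 libraries. In the outer zones these were 0.827, 0.919 and 0.775. The background correlated far less, with 0.135 among members and 0.104 in the outer zones. Fold was higher in replicate 1 than in replicate 2 in 1094 members (70.04%), close to the 70.7% of outer regions. The lists differ in depth and fold is comparable only within a list, so this is a description. Fold and width went together, with a Spearman correlation of 0.724 in replicate 1 and 0.680 in replicate 2.

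Most peaks of the middle zones were found in both replicates, at shares not detectably different from those near the ends. Of the 1710 replicate 1 peaks in the middle zones, 1566 overlapped a replicate 2 peak (91.6%, exact 95% interval 90.2 to 92.9), against 92.1% in the outer zones (91.7 to 92.4). Over all replicate 1 peaks outside chromosome 13 the share was 91.9%. Of the 2072 replicate 2 peaks in the middle zones, 1568 overlapped a replicate 1 peak (75.7%, 73.8 to 77.5), against 76.8% in the outer zones (76.3 to 77.2) and 76.6% overall. Neither share differed past the threshold in the exact sign test over chromosomes (adjusted p of 0.674 and 1). The 144 middle peaks of replicate 1 without a counterpart were weak, with a median fold of 4.39 and a median pileup of 19 fragments. Those with a counterpart had 7.26 and 34. The 504 middle peaks of replicate 2 without a counterpart had a median fold of 3.68 and a pileup of 31 fragments, and those with one had 6.50 and 60. At these depths, absence from the other list does not show that a site is unbound there.

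The strongest member lay on chromosome 3 from 23958616 to 23959777, at 52.4% of the span, and ranked second of all 33504 shared regions. Its fold was 46.8 in replicate 1, over a pileup of 333 fragments. In replicate 2 it was 39.8, the highest of any member, over 364 fragments. The region was wide as well, with peaks of 1062 and 1162 bp.

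The next 2 members were on chromosome 8. One, at 21316621 to 21317383, took rank 4 of all shared regions. It was enriched 52.8-fold in replicate 1 and 37.2-fold in replicate 2. The other, at 20441902 to 20442688, had the highest fold of any member in replicate 1, 55.5, with 31.2 in replicate 2. Its background in replicate 1 was at the lowest value, 3.00 fragments, and the summits of both replicates fell on the same base. Another strong member of chromosome 8, at rank 11 among members, spanned 21324685 to 21325328. Its folds were 38.8 in replicate 1 and 21.8 in replicate 2. It lay within 10 kb of the first.

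Chromosome 11 held a pair of the 12 best members. That at 17933824 to 17934681 had folds of 39.9 in replicate 1 and 31.4 in replicate 2, and the nearest other shared summit was 136.8 kb away. The second, at 18107118 to 18107923, had folds of 47.4 and 25.8 with a neighbour 1.37 kb away. Chromosome 15 also held a pair. The member at 26167248 to 26167908 had folds of 42.8 in replicate 1 and 27.9 in replicate 2. That at 22620867 to 22621473 had 40.2 and 19.1, with 107.1 kb to its nearest neighbour. Strong members thus occurred both alone and beside other sites.

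The remaining 4 of the 12 best members were on separate chromosomes. Chromosome 5 had one at 24777735 to 24778582, with folds of 48.7 in replicate 1 and 28.04 in replicate 2. Chromosome 6 had one at 21477476 to 21478621, with folds of 42.02 and 26.8 and peaks of 1051 and 1146 bp. Chromosome 1 had one at 33253663 to 33254563, with folds of 39.4 and 27.8. That of chromosome 9, at 22252569 to 22253179, had 30.8 and 28.01, the closest folds between replicates among these 12. All 12 had a higher fold in replicate 1, a comparison across lists of unlike depth.

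**Figure D4:**
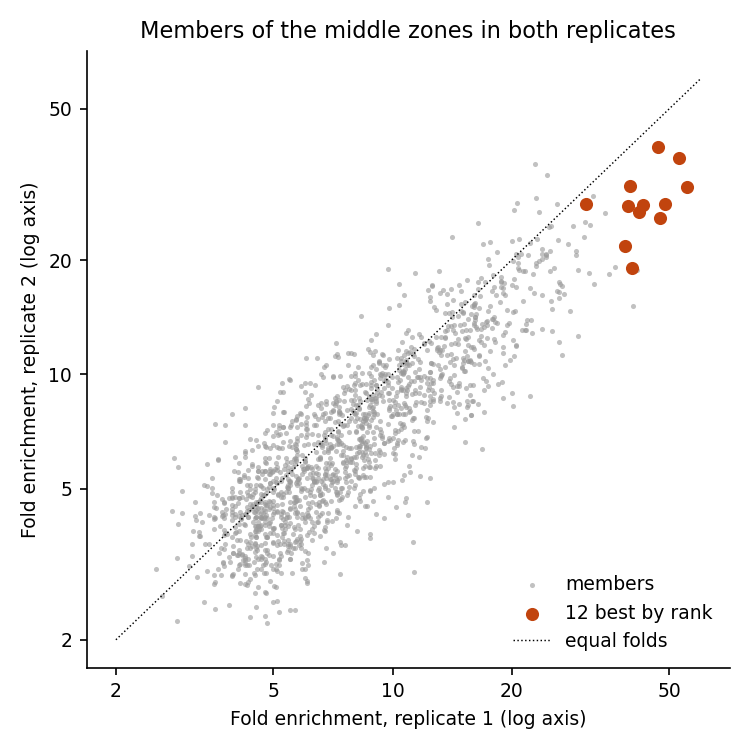
Fold enrichment of the 1562 members in replicate 1 (horizontal, log axis) and replicate 2 (vertical, log axis), each point a region, with the 12 best by rank in colour and a dotted line at equal folds. All 12 best lie below the line, with folds of 30.8 to 55.5 in replicate 1 and 19.1 to 39.8 in replicate 2. The lists differ in depth, so the line is a visual guide only.

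The best member of each of the 19 chromosomes had a fold of at least 20.6 in replicate 1 and 18.3 in replicate 2. Chromosome 7 had its best member at 19202592 to 19203231, with folds of 41.4 in replicate 1 and 18.9 in replicate 2. That of chromosome 19, at 27647894 to 27648571, had 29.1 and 20.6. The best of chromosome 20, at 24967315 to 24968009, had 31.5 and 24.8. These 3 were among the best 22 members.

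The best member of chromosome 10, at 27236212 to 27236886, had folds of 35.1 in replicate 1 and 18.3 in replicate 2. The best of chromosome 16, at 18650208 to 18650858, had 20.6 in replicate 1 and a higher 28.3 in replicate 2. The best of chromosome 18, at 23312473 to 23313047, had 27.8 and 22.02 and lay at 40.2% of the span and so near the edge of the zone. Chromosome 16 differs here from the 12 best members in having the higher fold in replicate 2, again across lists of unlike depth.

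The best of chromosome 17, at 20392039 to 20392498, had folds of 23.1 in replicate 1 and 19.3 in replicate 2. The best of chromosome 14, at 22348851 to 22349447, had 20.8 and 19.6. Chromosome 12 had its best at 20834387 to 20835059, with 24.5 and 20.4. The lowest of these 19 by rank were on chromosomes 2 and 4, where the best members took ranks 85 and 86 among members. That of chromosome 2, at 24784749 to 24785215, had folds of 20.8 and 20.3, and its nearest shared summit was 332.95 kb away. That of chromosome 4, at 22492920 to 22493545, had folds of 22.998 and 19.7.

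Chromosome medians of fold varied more in the middle zones, which hold fewer regions each. They ranged from 6.50 on chromosome 4 to 8.56 on chromosome 15 in replicate 1, and from 5.73 on chromosome 4 to 7.67 on chromosome 19 in replicate 2. In the outer zones they ranged from 6.82 to 7.45 and from 6.07 to 6.57. The share of members with a fold of at least 10 in both lists had a median of 19.3% over chromosomes, against 20.8% of all shared regions. Its extremes were 25 of 87 members (28.7%) on chromosome 19 and 5 of 35 (14.3%) on chromosome 4. These are small counts, and their difference was not tested. Across chromosomes, the middle density had a Spearman correlation of 0.174 with the median fold of replicate 1 and of 0.309 with that of replicate 2 (n = 19 chromosomes from the same libraries, a description). The densest middle, on chromosome 8, had a median fold of 6.92 in replicate 1 and 6.35 in replicate 2, below the medians of all members.

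Members stood farther apart than sites near the ends, but many had a close neighbour. The median distance to the nearest shared summit was 9.97 kb among members and 3.63 kb in the outer zones, and the chromosome median was greater in the middle on 19 of 19 chromosomes (adjusted exact sign test p = 5.72e-05, median difference 5312 bp, interval 1781.5 to 13401.5). The difference was 1670.5 bp without replicate 1 and 3229 bp without replicate 2. Those single lists also hold unshared peaks, so library and peak set cannot be told apart. The spacing restates the lower density, of which it is another measure and which was already known from these data. Its direction was therefore largely set in advance, and the p is no separate support. The spread of distances was not shifted evenly. The lower quartile of distance was 1.99 kb among members and 1.58 kb in the outer zones, while the upper quartile was 39.1 kb among members and 8.14 kb in the outer zones. A neighbour within 1 kb was present at 164 members (10.5%, exact 95% interval 9.02 to 12.1) and at 12.99% of outer regions (12.6 to 13.4). Within 10 kb it was 783 members (50.1%, 47.6 to 52.6) and 80.5% of outer regions (79.98 to 80.99). No neighbour within 100 kb was found for 168 members (10.8%, 9.26 to 12.4) and for 0.222% of outer regions (0.166 to 0.290). The shares by distance were not tested over chromosomes. Their intervals treat regions as independent, although 2 close regions each count as the other's neighbour, so they are too narrow to compare zones.

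**Figure D5:**
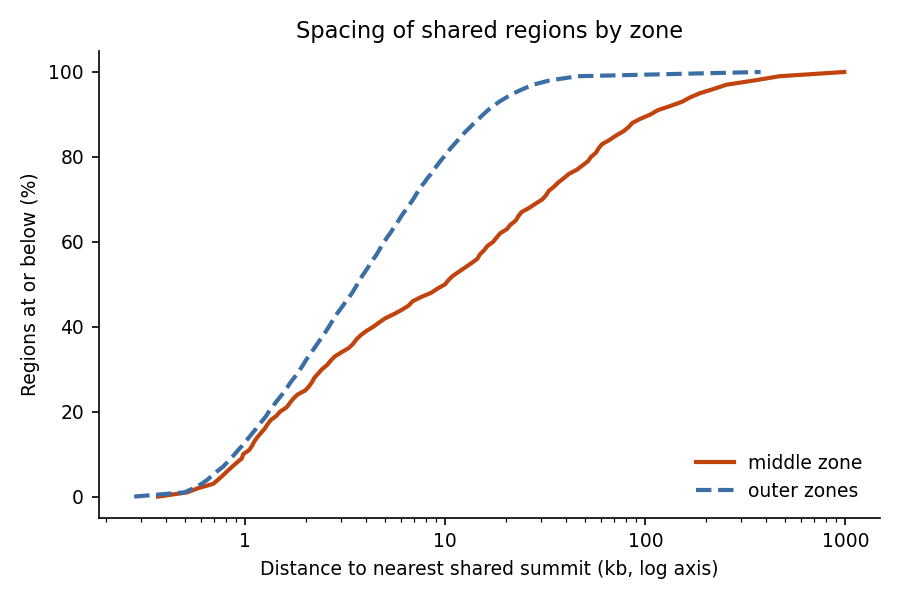
Share of shared regions (%) whose nearest shared summit lies at or below each distance (kb, log axis), for the middle zone (solid) and the outer zones (dashed). The curves run close together up to about 1 kb (10.5% of members and 12.99% of outer regions) and part above it, with medians of 9.97 and 3.63 kb.

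The spacing varied widely between chromosomes. Median distances among members were shortest on chromosome 5 (3.32 kb), although it has few members, and on chromosome 17 (3.64 kb). They were longest on chromosome 20 (26.9 kb) and chromosome 10 (23.2 kb). On chromosome 5 the outer median, 3.13 kb, was close to that of the middle. The most isolated member, on chromosome 19 from 25956839 to 25957165, had its nearest shared summit 987.4 kb away and a moderate fold of 5.89 in replicate 1 and 7.84 in replicate 2.

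Most of the middle zones were empty at the scale of 50 kb. Of 3591 such windows lying wholly in a middle zone, 2671 (74.4%) held no shared region and 532 held 1, while 14.6% of 7197 windows in the outer zones were empty. At least 5 shared regions were present in 22 middle windows (0.613%), against 30.01% of outer windows. The fullest middle windows held 8. One lay on chromosome 6 from 21450001 to 21500000 and included the member at rank 8, and folds there ran from 4.25 to 42.02 in replicate 1. The other lay on chromosome 9 from 20300001 to 20350000 and held weaker sites, with a median fold of 5.06 in replicate 1 and 5.00 in replicate 2. A window at 18550001 to 18600000 of chromosome 3 held 7, and so did one at 20550001 to 20600000 of chromosome 17.

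Long stretches had no shared site. The widest gap between neighbouring shared summits inside a middle zone was 2.20 Mb, on chromosome 4 from 23915199 to 26116142. The next was 2.09 Mb on chromosome 15 from 26407288 to 28499227, and the third, 1.48 Mb, was again on chromosome 4 from 27129900 to 28611240. In all, 18 gaps exceeded 1 Mb, on 13 of the 19 chromosomes, while the median gap between neighbours was 35.2 kb. Mappability and input coverage in these gaps were not analysed here.

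Members with near neighbours were not shown to differ in strength from isolated ones. Crowded members, with another shared summit within 10 kb, had a median fold of 7.52 in replicate 1 and 6.54 in replicate 2. Lone members, with none within 100 kb, had 6.69 and 6.33. Over the 16 chromosomes with at least 5 of each, crowded members had the higher median on 11 in replicate 1 (adjusted exact sign test p = 0.525, median difference 0.229, interval -0.475 to 2.25). In replicate 2 they had it on 8 (adjusted exact p = 1, interval -0.772 to 1.78). A fold of at least 10 in both lists was reached by 178 crowded members (22.7%) and 34 lone members (20.2%), and by 108 of the 611 members in between (17.7%), against 20.8% of all shared regions.

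Pooled over chromosomes, members were most numerous at the start of the zone, which was the fullest stretch on 8 of 19 chromosomes. The stretch from 40 to 45% of the span held 541 members (11.99 per Mb), that from 45 to 50% held 372 (8.24 per Mb), that from 50 to 55% held 279 (6.18 per Mb) and that from 55 to 60% held 370 (8.20 per Mb). In these pooled counts the stretch from 55 to 60% was thus no fuller than that from 45 to 50%. Chromosome 8 weighed on this, with 77 members from 45 to 50% and 7 from 55 to 60%. The median count per chromosome over the 4 stretches, in the same order, was 31, 13, 12 and 19. On 14 of 19 chromosomes one of the outer stretches, 40 to 45% or 55 to 60%, was the fullest of the 4, a tie on chromosome 4 included. The lean was to one side on several chromosomes. On chromosome 7, 51 of 77 members lay from 40 to 45%, and on chromosome 6, 61 of 96. On chromosome 19, 44 of 87 lay from 55 to 60%. Chromosome 8 had 75 and 77 members in the stretches below 50%, and 11 and 7 in those above it.

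Fold enrichment was also read over the same stretches. From 40 to 45%, 45 to 50%, 50 to 55% and 55 to 60% of the span the median fold was 7.42, 7.07, 7.24 and 7.25 in replicate 1. In replicate 2 it was 6.57, 6.51, 6.47 and 6.06. These values are descriptions.

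At the borders of the zone folds of the nearest regions ran from 4.39 to 8.15. Nearest inside 40% was a region on chromosome 15 from 20684912 to 20685443 with a fold of 4.41 in replicate 1 and 4.49 in replicate 2. Nearest outside it was one on chromosome 8 from 19097515 to 19097928 with 6.87 and 8.15. Nearest inside 60% was one on chromosome 1 from 34078203 to 34078548 with 8.08 and 7.91, and nearest outside was one on chromosome 6 from 30789330 to 30790634 with 4.39 and 7.20.

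A few members were unusual in shape. The widest in replicate 2 lay on chromosome 19 from 27579663 to 27581088, with peaks of 1375 and 1426 bp and folds of 30.4 in replicate 1 and 22.96 in replicate 2. The widest in replicate 1 lay on chromosome 11 from 20371328 to 20372859, where 1 replicate 1 peak of 1495 bp met 3 replicate 2 peaks. Its fold was 11.3 in replicate 1 and 3.63 at the widest replicate 2 peak, and the summits used were 653 bp apart, the greatest distance among members. The other 7 members with several peaks in a list were on chromosomes 1, 5, 6, 8, 9, 15 and 16.

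The weakest members had folds of 2.22 to 4.82 in the lists. The lowest fold in replicate 1 was 2.52, on chromosome 19 from 27018591 to 27019060, beside 3.07 in replicate 2. The lowest in replicate 2 was 2.22, on chromosome 11 from 14275248 to 14275652, beside 4.82 in replicate 1. The last member by rank, on chromosome 2 from 28279855 to 28280167, had folds of 2.62 and 2.61. The highest backgrounds at any member were 8.70 fragments in replicate 1 and 17.5 in replicate 2. In the outer zones they reached 17.4 and 46.8 fragments.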

How the data were processed

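Chromatin of soybean embryos was precipitated in 2 biological replicates, and a deposited peak list was used for each ChIP library. Input libraries were used only as the background that the lists carry. Bowtie 0.12.7 and MACS2 are named in the submitters' processing notes, MACS2 without a version. Peaks were called per replicate with a q threshold of 0.01, per the peak names in the deposited files. The sources used here do not give the build, the pairing of Input with ChIP or the handling of duplicates. The authors' deposited values are a score (10 times −log10 q, decimals dropped, in all but 1 peak of replicate 2), the fold enrichment as a ratio, and −log10 p and q at the summit, with the peak's position and summit.

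Peaks on scaffolds (214 in replicate 1, 250 in replicate 2) and on chromosome 13 were left out. Pileups were recovered as the whole number that gave the deposited −log10 p within 0.001 under a Poisson law, for every peak on a chromosome but 1. Backgrounds were rounded to 3 decimals, since folds have 5. Medians or shares of zones were compared on chromosomes with at least 10 regions in each zone by two-sided exact sign tests, adjusted over 15 comparisons at 0.05, with order-statistic intervals. Shares have exact (Clopper-Pearson) 95% intervals, which cover counting error only. Scripts (Python 3.11.15, NumPy 2.4.6, pandas 2.3.3, SciPy 1.17.1) were tested on simulated data. The regions named are the 12 best members by rank, the best of each chromosome, the extremes of fold and width, the fullest windows, the widest gaps and the regions next to the zone's edges; the most isolated member, the weakest by rank, those with several peaks and the highest backgrounds were added after their values were seen. The stretches of 5% of the span, the shares by neighbour distance and the shares at the lowest background were also chosen then. Members and comparisons were chosen with earlier results of these data known. Each result was recomputed under up to 9 alternatives.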

Additional observations from a re-analysis of the deposited data

How the results depend on the processing

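Of 137 alternative values, 111 were counted as unchanged. For that, a tested difference had to keep its side of the threshold without reversing, and a count of members had to stay within 1.5 times. A width difference of 0 bp in replicate 2 with the zone from 45 to 55% was counted as unchanged. Some values could not change. With the outer 10% at each end, the member count and the differences between crowded and lone members stay the same by construction. Many of the unchanged values were tests that passed the threshold in neither setting, so their total does not measure stability. A density ratio was held to the SD between the 2 single lists, 0.00113. Those lists are themselves among the alternatives, so this yardstick is no measure of stability. The greater distance to the nearest shared region and the lower background in replicate 1 stayed past the threshold under every alternative run, with adjusted exact sign test p up to 0.00114 and up to 0.0332. The distance restates the lower density, so its p is no separate support. The size of the distance difference was less stable. It was 1670.5 bp without replicate 1 and 3229 bp without replicate 2, in single lists that also hold unshared peaks. It was 10154 bp with the zone from 45 to 55% and 14404 bp with q of 1e-10 or less. Members numbered 1120 with q of 1e-10 or less and 2247 with chromosome 13 included. With a narrower middle zone (45 to 55%) there were 651 members. The ratio of middle to outer density, 0.131, became 0.109 with that zone, 0.113 with the outer 10% at each end, 0.129 with q of 1e-10 or less and 0.182 with chromosome 13 included, and it was 0.132 without replicate 1 and 0.131 without replicate 2. Without replicate 1 the middle zones held 2072 peaks, and without replicate 2 they held 1710. The lower background in replicate 2 passed the threshold with summits within 100 bp (median difference -0.663), with q of 1e-10 or less (-0.599), with the zone from 45 to 55% (-0.608) and without replicate 1 (-0.566).

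The reversals were of differences that passed no threshold in any setting. The fold difference became -0.250 in replicate 1 with the zone from 45 to 55%, -0.0526 without replicate 2, and -0.0275 in replicate 2 without replicate 1. Between crowded and lone members it became -0.00458 in replicate 2 without replicate 1, and in replicate 1 it was 0.799 without replicate 2. The pileup difference of replicate 2 became 1 with q of 1e-10 or less. Width differences became 2.5 bp in replicate 1 without replicate 2 and 0.5 bp in replicate 2 with 50% overlap. The summit distance difference became 1 bp with summits within 100 bp and 0.5 bp with q of 1e-10 or less. The difference in the share of replicate 1 peaks with a counterpart became 0.235 percentage points with 50% overlap, 0.258 with summits within 100 bp and 1.27 with the zone from 45 to 55%. For replicate 2 peaks it became -2.24 with summits within 100 bp, -0.680 with q of 1e-10 or less, -2.50 with the zone from 45 to 55% and -1.17 with the outer 10% at each end. The cause was not tested. No paired analysis was possible because no separate values of the Input libraries were used, so ChIP and Input samples were not compared. The zone tests pair the zones of each chromosome. Leaving out a replicate gives no summit distance and no share with a counterpart. At these depths sites under the calling limit are not shown to be unbound.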
